A study of Saccharomyces cerevisiae with 4 samples.

Results

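The nuclear genes of mitochondrial ribosomal proteins in Saccharomyces cerevisiae are described here in RNA from purified nuclear mRNPs and from the lysate they were purified from. The genes were chosen by name alone, as open reading frames whose standard name is MRP, MRPL, MRPS or RSM followed by a number. This rule found 67 of the 6692 open reading frames in the count table, 13 named MRP, 34 MRPL, 9 MRPS and 11 RSM, and all 67 passed the filter on low counts. They lie on 14 nuclear chromosomes. By their known family names, 38 encode proteins of the large mitochondrial subunit and 28 of the small subunit. MRP8 has no family name of a ribosomal protein in the RefSeq table of assembly R64 and was given no subunit. RSM22 has none either and was kept with the small subunit, as its name has it.

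The mitochondrial ribosome translates the few mRNAs of the mitochondrial genome, which in yeast encode mainly core subunits of the respiratory chain and of the ATP synthase. Its proteins are nearly all encoded in the nucleus, translated in the cytoplasm and imported, while its ribosomal RNAs and the small-subunit protein Var1 are made from mitochondrial DNA. Many of the proteins descend from those of bacterial ribosomes, and others are found only in mitochondria. In the family names, u marks a protein found in all ribosomes, b one shared with bacteria and m one specific to mitochondria, followed by L or S for the subunit.

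The particles were purified on Sub2, a DEAD-box ATPase of mRNP assembly, and then on Hpr1, a subunit of the THO complex. The 2 groups, eluted particles (eluates 1 and 2) and total lysate (lysates 1 and 2), hold 2 libraries each. All 4 came from 1 genotype of the haploid strain BY4741 grown in YPD, with a FLAG-3C-ProtA tag on Sub2 and a Twin-Strep tag on Hpr1, so that the lysate carries both tags as well. The replicates are biological ones by the paper, and the sources used here do not give how many clones they came from.

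Libraries summed to 22454265 and 29903666 counts for the eluates, against 14793216 and 11448755 for the lysates. No read was counted for LEU2, MET17 or URA3, all deleted in BY4741. Reading frames of the mitochondrial genome took 0.00717% and 0.00685% of the counts of the eluates, against 1.31% and 1.33% of those of the lysates. Over the 67 genes, the median absolute log2 difference in CPM was 0.119 for eluate 1 against eluate 2 and 0.0755 for lysate 1 against lysate 2. Values are CPM over library sizes adjusted by TMM, and levels of different genes are compared per kb of coding length. A fold change sets 2 RNA pools side by side, and in such bulk samples fewer particles with an mRNA and fewer reads from each particle cannot be told apart.

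Transcripts of mitochondrial ribosomal proteins were depleted from the eluate. Of the 67 genes, 58 were lower in the eluate and 4 were higher (edgeR quasi-likelihood test, Benjamini-Hochberg adjusted p under 0.05 over 6191 genes). The other 5 did not pass. Among all genes tested, 44.8% were lower and 44.2% higher. The median log2 fold change of eluate over lysate was -1.61 over the 67 genes, which is 3.05-fold lower, and -0.01 over all genes tested. With library totals in place of TMM, the median of all genes shifted by -0.18 and that of the 67 genes was -1.79. Depletion exceeded 2-fold in 48 of the 67 genes (31.9% of all genes tested) and 4-fold in 26 (18.1% of all genes tested). Both eluates lay below both lysates for 58 genes (47.5% of all genes tested) and above both for 5 (46.9%).

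The 67 genes together took 0.163% and 0.159% of the reads counted in the eluates, against 0.423% and 0.418% in lysates. The 95% exact binomial intervals were 0.162% to 0.165% and 0.158% to 0.160% for the eluates, and 0.419% to 0.426% and 0.414% to 0.421% for the lysates. They hold counting error alone, as reads carried no molecular identifier and several can stem from 1 molecule. On average, this share was 2.61-fold higher in lysates (two-sided exact permutation p = 0.333, the lowest that 2 against 2 libraries allow). At the level of single genes, 60 of the 67 lay above the median lysate level per kb of the 5774 nuclear protein-coding genes tested, while only 16 lay above their median eluate level. The median gene of the 67 had 26.6 and 29.0 CPM per kb in the eluates and 82.8 and 81.2 CPM per kb in the lysates. Over the 5774 nuclear genes, the median was 43.5 and 43.2 CPM per kb in the eluates and 42.7 and 41.8 CPM per kb in the lysates.

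**Figure D1:**
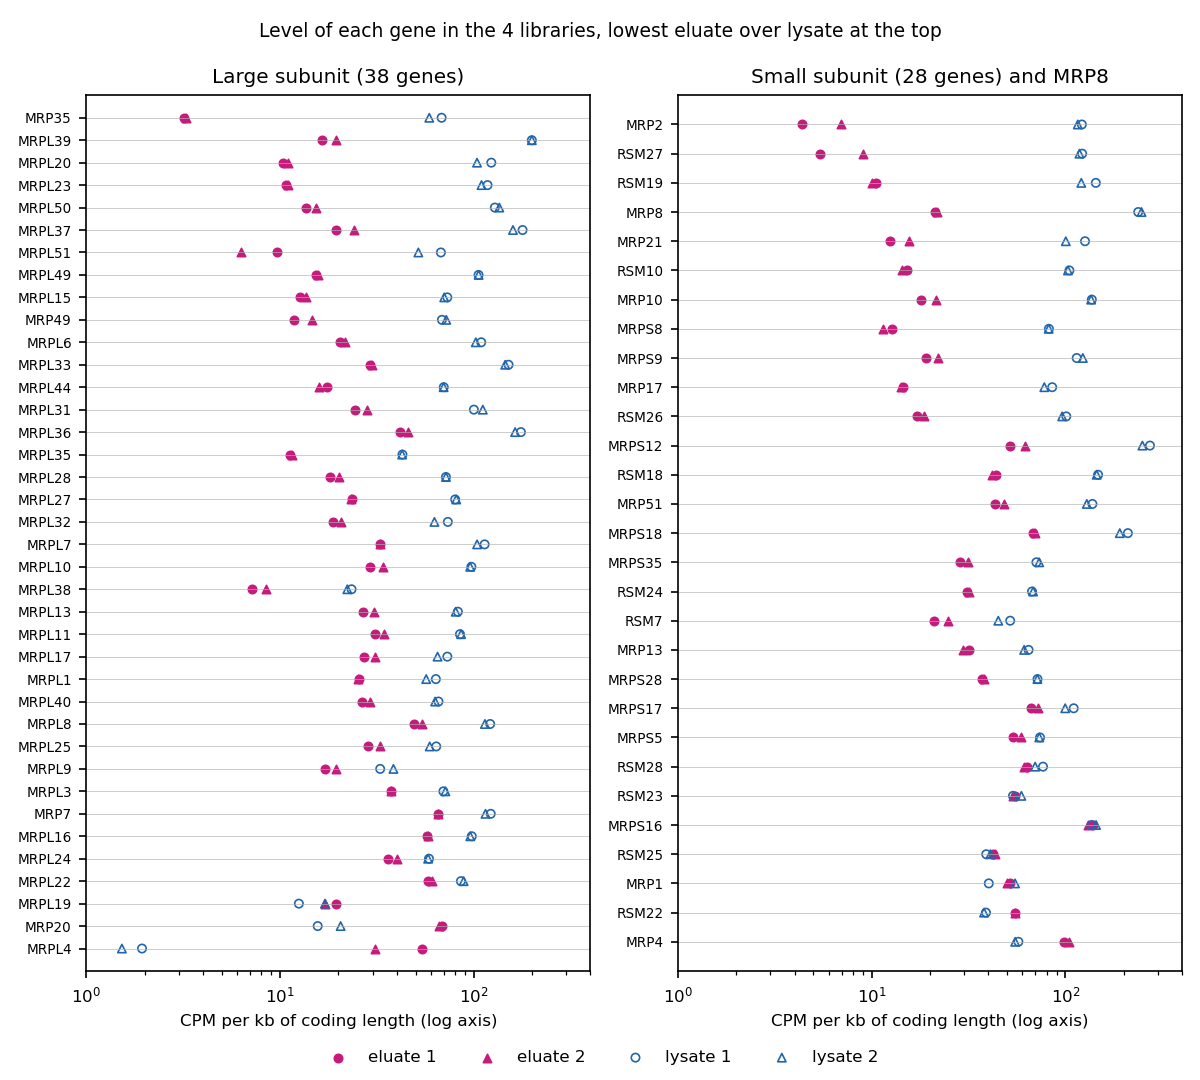
Level of each of the 67 genes in CPM per kb of coding length (log axis) in eluates 1 and 2 (filled) and lysates 1 and 2 (open), ordered by log2 fold change from the lowest at the top. Eluate symbols lie to the left of lysate symbols for 58 genes and to the right for 5, with MRPL4 at the bottom of the large subunit.

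The most depleted gene was MRP2, which encodes uS14m of the small subunit. It lies on chromosome XVI from 876282 to 876629 (sacCer3), with a coding length of 348 bases. MRP2 had 1.52 and 2.41 CPM in the eluates, against 42.3 and 40.3 CPM in the lysates, a log2 fold change of -4.36 (SE 0.17, edgeR adjusted p = 2.67e-12). Both eluates were far below both lysates, although they differed from each other as well, with 33 and 66 counts. MRP35, the gene of bL35m of the large subunit, has the same coding length and lies on chromosome XIV from 398023 to 398370. It had 1.11 and 1.13 CPM in the eluates, against 23.7 and 20.5 CPM in the lysates, a log2 fold change of -4.30 (SE 0.19). At 3.19 and 3.25 CPM per kb, MRP35 had the lowest eluate level of the 67 genes.

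In the small subunit, RSM27 (mS33), RSM19 (uS19m), MRP21 (bS21m), RSM10 (uS10m) and MRP10 (mS37) followed MRP2. RSM27 had 1.80 and 2.99 CPM in the eluates and 40.7 and 39.4 CPM in the lysates, a log2 fold change of -4.03. RSM19 fell to 2.91 and 2.78 CPM in the eluates, against 39.6 and 33.4 CPM in the lysates, a log2 fold change of -3.69. The log2 fold changes of MRP21 and RSM10 were -3.01 and -2.81. MRP10, whose product is a small protein with paired cysteine motifs, had 5.17 and 6.21 CPM in the eluates and 39.4 and 39.1 CPM in the lysates, a log2 fold change of -2.78.

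In the large subunit, MRPL39 (bL33m), MRPL20 (mL58), MRPL23 (uL13m), MRPL50 (bL9m) and MRPL37 (mL54) followed MRP35. MRPL39 had 3.51 and 4.13 CPM in the eluates and 42.5 CPM in each lysate, a log2 fold change of -3.46. For MRPL20, the values were 6.05 and 6.43 CPM in the eluates and 72.4 and 61.1 CPM in the lysates. MRPL23 had 5.27 and 5.40 CPM in the eluates and 57.9 and 53.9 CPM in the lysates. Log2 fold changes of MRPL20, MRPL23, MRPL50 and MRPL37 were -3.42, -3.39, -3.19 and -2.95. For each of these 12 genes, chosen by their low log2 fold changes, both eluates were below both lysates, as for 47.5% of all genes tested.

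MRP8, the gene with no assigned subunit, had a log2 fold change of -3.49 (SE 0.10, edgeR adjusted p = 8.97e-14). It had 14.1 and 14.3 CPM in the eluates, against 156.9 and 163.2 CPM in the lysates, the highest lysate CPM of the 67 genes. Without MRP8 the median of the remaining genes was -1.58, with 57 lower and 4 higher.

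The 58 lower genes reached up to a log2 fold change of -0.24 for RSM28 (edgeR adjusted p = 0.0258), followed by -0.39 for MRPS5, -0.56 for MRPL22 and -0.60 for MRPS17. For RSM28 both eluates were below both lysates as well. Of the 61 genes that share no base with another reading frame, 54 were lower and 3 higher, with a median of -1.78. The other 6 genes, whose counts are uncertain, are MRPL51, MRPL38, RSM7 and MRPL9, which were lower, MRP4, which was higher, and MRPL19, which did not pass. Their median was -1.02.

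The genes with the highest lysate levels per kb were depleted too. The lysate level is also the divisor of the fold change, so this choice of genes favours low fold changes. MRPS12, the gene of uS12m, a protein of the decoding centre, had 51.5 and 61.6 CPM per kb in the eluates and 273.3 and 249.8 CPM per kb in the lysates, with a log2 fold change of -2.21. MRPS18 (uS11m) and RSM18 (bS18m) averaged 69.0 and 42.7 CPM per kb in the eluates, against 200.6 and 146 CPM per kb in the lysates. In the large subunit, MRPL39, MRPL36 (bL31m) and MRPL37 averaged 17.9, 43.5 and 21.7 CPM per kb in the eluates. Their lysate means were 199, 169 and 169 CPM per kb.

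The gene with the strongest enrichment was MRPL4, which encodes uL29m, a protein at the exit of the ribosomal tunnel. MRPL4 lies on chromosome XII from 1014491 to 1015450 (sacCer3), with a coding length of 960 bases and no overlap with another reading frame. It had 52.1 and 29.8 CPM in the eluates, against 1.86 and 1.46 CPM in the lysates, a log2 fold change of 4.59 (SE 0.29, edgeR adjusted p = 7.09e-10). The 2 eluates of MRPL4 differed by 0.80 on the log2 scale, the widest difference between replicates among the 67 genes. Its lysate values rest on 29 and 18 counts and were the lowest of the 67 genes, at percentile 2.98 of the lysate levels of nuclear protein-coding genes. In the eluate MRPL4 stood at percentile 49.6, within the range of the other genes. Overlap was read between reading frames alone, and the mapping of reads to MRPL4 could not be checked.

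MRP20 encodes uL23m, another protein at the tunnel exit. It had 54.4 and 52.4 CPM in the eluates, against 12.4 and 16.3 CPM in the lysates, a log2 fold change of 1.91 (SE 0.13, edgeR adjusted p = 1.34e-09). In the lysate MRP20 was at percentile 23.1. MRP4, the gene of uS2m, had 116 and 124 CPM in the eluates and 67.8 and 65.2 CPM in the lysates, a log2 fold change of 0.85 (edgeR adjusted p = 2.71e-07). MRP4 overlaps a reading frame on the opposite strand, YHL005C, and its count is uncertain. RSM22, of a methyltransferase-like protein and with 1887 bases the longest of the 67, had 103.7 and 103.3 CPM in the eluates and 73.4 and 71.7 CPM in the lysates. Its log2 fold change was 0.51 (edgeR adjusted p = 5.38e-05). For these 4 genes, chosen by their call in the same libraries, both eluates were above both lysates, as for 46.9% of all genes tested.

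Another 5 genes did not pass the test. RSM23 (mS29) had a log2 fold change of -0.05, MRPS16 (bS16m) of -0.05, RSM25 (mS23) of 0.10 and MRP1 (mS43) of 0.10. MRPS16 had 50.9 and 48.2 CPM in the eluates and 49.9 and 52.7 CPM in the lysates, so that the groups overlap. With a coding length of 366 bases it is among the short genes, and at 139 and 132 CPM per kb it had the highest eluate level of the 67. MRPL19, the gene of uL11m, had 9.24 and 8.11 CPM in the eluates and 5.96 and 8.13 CPM in the lysates, a log2 fold change of 0.31 (edgeR adjusted p = 0.119). It shares bases with the reading frame YNL184C on its strand, and its count is uncertain. Without lysate 2, MRP1 and MRPL19 passed as higher, with log2 fold changes of 0.33 (edgeR adjusted p = 0.00823) and 0.53 (edgeR adjusted p = 0.0265). Without lysate 1, MRP1 had a log2 fold change of -0.12.

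To compare the subunits, their genes were described apart. In the large subunit, 35 of 38 genes were lower and 2 higher, and in the small subunit 22 of 28 were lower and 2 higher. The median log2 fold change was -1.76 for the large subunit and -1.40 for the small subunit. The quartiles were -2.38 and -1.05 for the large subunit, and -2.59 and -0.35 for the small subunit. Summed over genes per kb, the large subunit had 0.922 and 0.919 times the level of the small subunit in the eluates, against 1.15 and 1.16 times in lysates. The ratio was thus 0.799 times as high in the eluate, and its eluate and lysate values did not overlap (two-sided exact permutation p = 0.333, the lowest possible). The share of counts fell to 0.0705% ± 0.0016 in the eluates for the large subunit, against 0.206% ± 0.0026 in the lysates (SD, n = 2 each). For the small subunit the shares were 0.0892% ± 0.0013 in the eluates and 0.197% ± 0.0017 in the lysates (SD, n = 2 each).

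The small-subunit genes are longer, with a median coding length of 769.5 bases, against 616.5 bases for the large subunit. Within bands of coding length the order of the subunits was not the same. Up to 500 bases, the median log2 fold change was -2.36 in 16 large-subunit genes and -2.77 in 9 small-subunit genes. Over 500 and up to 800 bases it was -1.51 in 11 and -1.31 in 6 genes, and over 800 bases -1.21 in 11 and -0.94 in 13 genes. After subtraction of a straight line of log2 fold change on log2 coding length, fitted to the other 5707 nuclear protein-coding genes, the medians were -0.73 for both subunits. Genes are not replicates, and no test was made across them.

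Genes with a bacterial homologue and genes specific to mitochondria were both mostly lower in the eluate. Of 41 genes with a u or b family name, 36 were lower and 3 higher, with a median log2 fold change of -1.54. Of 24 genes with an m name, 21 were lower and 0 higher, and 3 did not pass, with a median of -1.85. All 14 mitochondrion-specific genes of the large subunit were lower, from -3.42 for MRPL20 to -0.92 for MRPL3, the gene of mL44. Of the 10 mitochondrion-specific genes of the small subunit, 7 were lower, and RSM23, RSM25 and MRP1 did not pass. Among all genes tested, 44.8% were lower. The median coding length was 459 bases for the 14 genes and 963 bases for the 10. Their median distances from the line on coding length were -0.85 and -0.73.

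**Figure D2:**
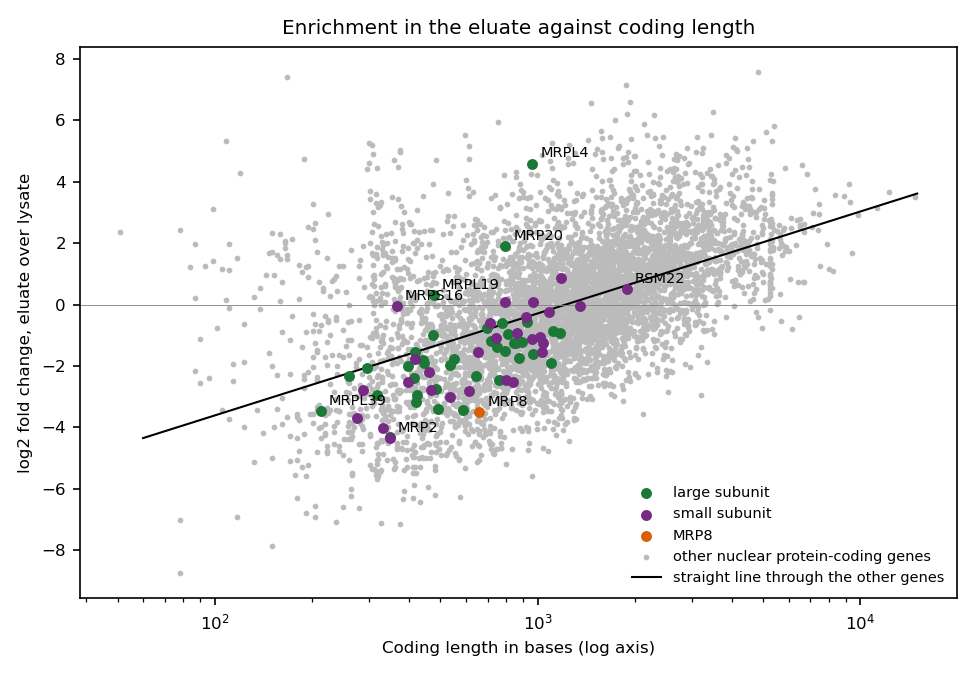
Log2 fold change of eluate over lysate against coding length in bases (log axis) for 38 large-subunit genes, 28 small-subunit genes, MRP8 and 5707 other nuclear protein-coding genes, with the straight line fitted to these other genes. The line rises by 1.0 per doubling of length, and 54 of the 67 genes lie below it.

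Short genes of the mitochondrial ribosome were depleted more than long ones. Spearman's rho of log2 fold change with coding length was 0.651 over the 67 genes, 0.632 over the large subunit and 0.709 over the small subunit. In eluate 1 over lysate 1 it was 0.649 over the 67 genes, and 0.636 in eluate 2 over lysate 2. Over 4122 other nuclear protein-coding genes in the same range of lengths, from 213 to 1887 bases, rho was 0.390. These correlations are across genes, which share the same 4 libraries.

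Up to 500 bases, 23 of 25 genes were lower and 0 higher, with a median log2 fold change of -2.52. Among other nuclear genes of up to 500 bases, 67.6% were lower, with a median of -1.88. Over 500 and up to 800 bases, 16 of 18 genes were lower, with a median of -1.52, against 72% and -1.35 among other genes. Over 800 bases, 19 of 24 were lower and 3 higher, with a median of -1.0, against 47.8% and -0.17 among other genes up to 1887 bases. In each of these bands the median of the mitochondrial ribosomal genes was below that of other genes. The other genes over 800 bases reach greater lengths than most of the 24.

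In finer length classes, which hold about equal numbers of nuclear protein-coding genes, the gap was widest among the shortest genes. Up to 615 bases, 28 of 30 genes were lower, with a median of -2.64, against 70.6% and -1.84 among other genes of this class. Above that and up to 1008 bases, 23 of 27 were lower, with a median of -1.20, against 64.3% and -0.95. In the next class, up to 1461 bases, 7 of 9 were lower, with a median of -0.92, against 51.9% and -0.29. RSM22 alone fell in the class up to 2118 bases, and its 0.51 was close to the median of 0.53 among other genes there. Which lengths show the widest gap thus depended on where the bounds were set.

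Relative to the line on coding length, 54 of the 67 genes lay below, 80.6%, against 52.3% of the other nuclear genes. The median distance from the line was -0.74. Against a running median of other genes of like length, 46 of the 67 lay below, and the median distance was -0.36. The line thus counts more of these genes as below the trend than the running median does.

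The shortest genes of each subunit were all depleted. MRPL39 has 213 bases, MRPL33 (uL30m) 261 and MRPL44 (mL53) 297 bases of coding sequence. MRPL33 had 7.62 and 7.78 CPM in the eluates and 39.4 and 37.9 CPM in the lysates, a log2 fold change of -2.33, at a distance of -0.10 from the line. MRPL44 is the only one of the 67 genes with an intron in its coding sequence, of 147 bases, and its counts cover the exons. It had 5.17 and 4.71 CPM in the eluates and 20.8 and 20.7 CPM in the lysates, a log2 fold change of -2.07, at a distance of -0.03 from the line. The shortest of the small subunit are RSM19 with 276, MRP10 with 288 and RSM27 with 333 bases.

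At the other end, MRPL3, MRP7 and MRPL35 are the longest of the large subunit, with 1173, 1116 and 1104 bases. MRP7, the gene of bL27m, a protein near the peptidyl transferase centre, had 73.0 and 72.8 CPM in the eluates and 136.5 and 128 CPM in the lysates, a log2 fold change of -0.86. MRPL3 had a log2 fold change of -0.92. MRPL35 (mL38) departed from them with 12.4 and 12.7 CPM in the eluates and 47.3 and 47.1 CPM in the lysates, a log2 fold change of -1.91, at a distance of -1.76 from the line. RSM22, RSM23 and MRP4, with 1887, 1353 and 1185 bases, are the longest of the small subunit, and none of them was lower in the eluate. Among other nuclear genes, 51.9% were lower in the length class of RSM23 and MRP4, and 28.5% in that of RSM22. The count of MRP4 is uncertain, as it overlaps another reading frame.

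The order of the genes by level in the eluate was unlike that in the lysate. Between replicates, Spearman's rho of levels per kb over the 67 genes was 0.983 for the eluates and 0.980 for the lysates. Between an eluate and a lysate it ranged from -0.064 to 0.022. Over the other nuclear protein-coding genes, rho between an eluate and a lysate ranged from 0.373 to 0.414. Over the 4122 of them in the same range of lengths, it ranged from 0.443 to 0.484. The lysate levels of the 67 genes spanned less, which these values of rho do not allow for. The interquartile range of their log2 levels was 0.869 and 0.921 in the lysates, against 2.29 and 2.24 over nuclear protein-coding genes. Levels per kb rose with coding length in the eluates (rho of 0.547 and 0.526 over the 67 genes) and fell with it in the lysates (rho of -0.445 and -0.434). Coding length is also the divisor of these levels, and the values describe these 67 genes in shared libraries.

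**Figure D3:**
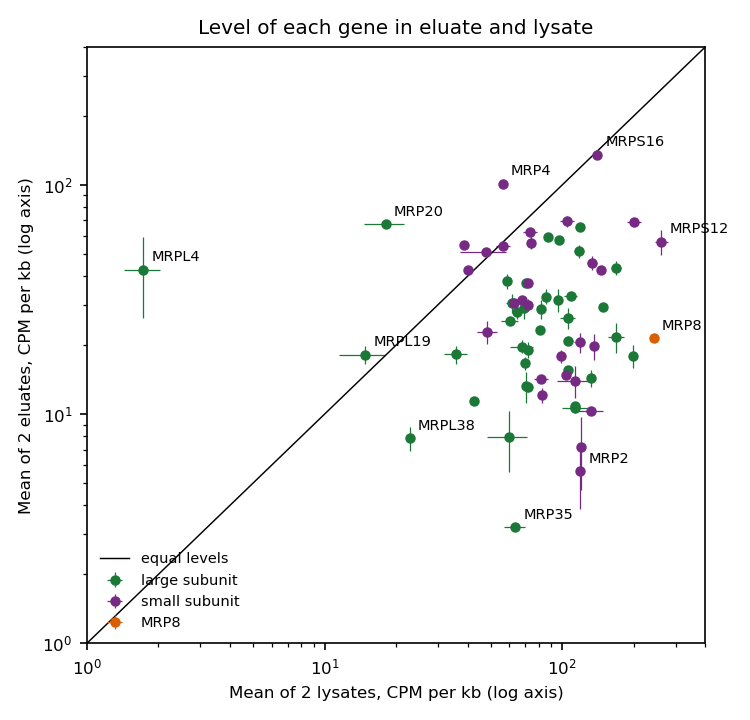
Mean level in CPM per kb in the 2 eluates (vertical) against the 2 lysates (horizontal), both on log axes, for 38 large-subunit genes, 28 small-subunit genes and MRP8, with bars of 1 SD over 2 libraries and a line of equal levels. Most genes lie below the line, and those above it include MRPL4, MRP20 and MRP4.

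In the eluate, the genes of the small subunit lay further apart than in the lysate. The SD over genes of log2(CPM per kb + 0.5) was 1.18 and 1.08 in the eluates and 0.708 and 0.657 in lysates for the small subunit (two-sided exact permutation p = 0.333, the lowest possible). In the large subunit it was 0.917 and 0.915 in the eluates and 1.17 and 1.15 in lysates, but MRPL4 decides this order. Without MRPL4 the SD of the large subunit was 0.905 and 0.926 in the eluates and 0.857 and 0.782 in lysates. Over all 67 genes the SD was 1.04 and 1.00 in the eluates and 1.02 and 0.994 in lysates, and groups overlapped (two-sided exact permutation p = 0.667). The interquartile range of the same log2 levels, on which a single gene weighs less, was 1.42 and 1.46 in the eluates and 0.869 and 0.921 in lysates. Over the nuclear protein-coding genes, the SD was 1.82 and 1.86 in the eluates and 2.13 and 2.11 in lysates, while the interquartile range was 2.46 and 2.52 in the eluates and 2.29 and 2.24 in lysates. For these genes the SD and the interquartile range thus differ in direction.

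Genes of mitochondrial ribosomal proteins with other names were mostly lower as well. Of 12 such nuclear genes, 10 were lower and 1 higher, with a median log2 fold change of -1.17. Among all genes tested, 44.8% were lower. The median coding length of the 12 genes was 633 bases. Relative to the line on coding length, 8 of the 12 lay below, 66.7%, against 80.6% of the 67 genes. The median distance was -0.57 for the 12 genes and -0.74 for the 67. Of the 12, RTC6 (bL36m) was the lowest, with 282 bases and a log2 fold change of -3.41. YML6, the gene of uL4m, was the one that was higher, with a log2 fold change of 0.71 (edgeR adjusted p = 2.63e-05). EHD3 (mS47) did not pass (-0.04, edgeR adjusted p = 0.694). VAR1, which is transcribed in mitochondria, was counted 4 and 0 times in the eluates, against 571 and 620 times in lysates.

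**Figure D4:**
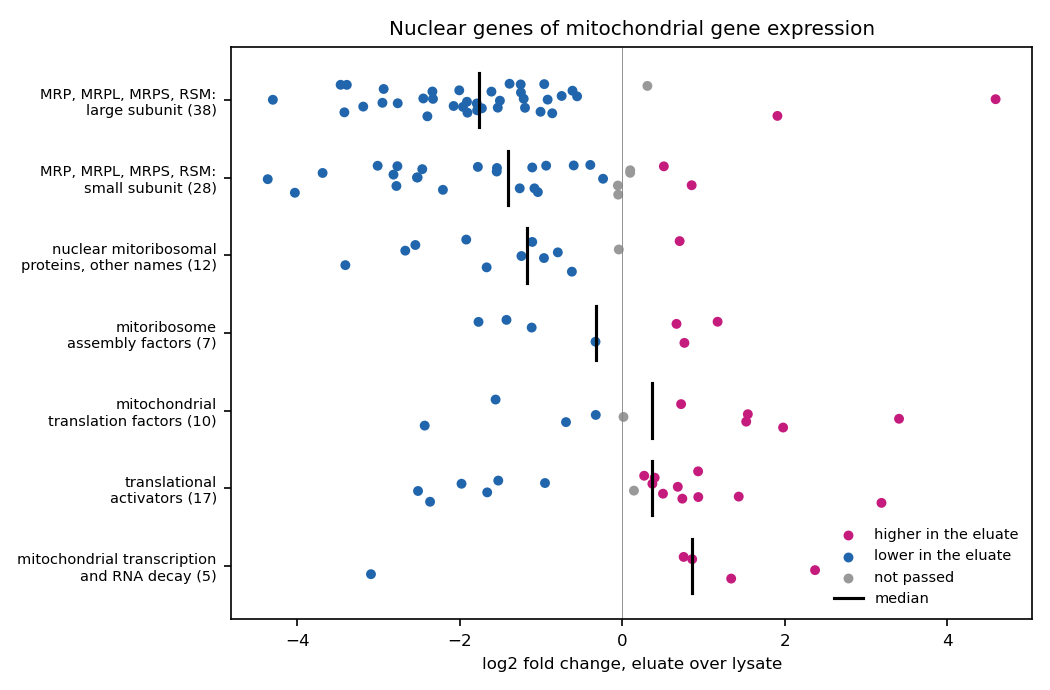
Log2 fold change of eluate over lysate (horizontal) for nuclear genes of mitochondrial gene expression, 1 point per gene, coloured by the call at an adjusted p under 0.05 from edgeR, with the median of each group as a black bar and the number of genes in brackets. The medians of the mitochondrial ribosomal protein groups lie between -1.76 and -1.17, and that of the translational activators at 0.37.

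Nuclear genes of other steps of mitochondrial gene expression fell on both sides, as did all genes tested, with 44.8% lower and 44.2% higher. Of 7 genes of mitoribosome assembly factors, 4 were lower and 3 higher, with a median log2 fold change of -0.33. MAM33 was the lowest at -1.77 and MTG2, a GTPase of large-subunit assembly, the highest at 1.17. Of 10 genes of mitochondrial translation factors, 4 were lower and 5 higher, with a median of 0.37. TUF1, the elongation factor Tu of mitochondria, averaged 83.8 CPM over the eluates, against 452 CPM over the lysates, a log2 fold change of -2.43. FMT1, which formylates the initiator methionyl-tRNA, averaged 127 CPM over the eluates, against 12 CPM over the lysates, a log2 fold change of 3.41.

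Of 17 genes of translational activators, which act on single mitochondrial mRNAs or bind the ribosome, 6 were lower and 10 higher, with a median of 0.37. They ranged from MBA1, a ribosome receptor of the inner membrane, at -2.51 to PET122, an activator of COX3 translation, at 3.19. PET122 overlaps a reading frame on the opposite strand. Among 5 genes of mitochondrial transcription and RNA decay, 4 were higher, and RPO41, the mitochondrial RNA polymerase, had the highest value at 2.37. MTF1, its specificity factor, was lower at -3.09. These groups differ in coding length, with medians of 699 bases for the 67 genes, 1239 for assembly factors, 1626 for translation factors, 1470 for activators and 2403 for transcription and decay. Relative to the line on coding length, the median distance was -0.74 for the 67 genes, -0.29 for activators, -0.35 for assembly factors, 0.02 for translation factors and 0.00068 for transcription and decay. Of the 17 activators, 13 lay below the line, 76.5%, against 80.6% of the 67 genes. Against the running median, the median distance of the 67 genes was -0.36, and the other groups were not compared with it.

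Genes of mitochondrial ribosomal proteins were depleted less than those of cytosolic ones. Their median log2 fold change was -1.61, against -4.44 over 137 cytosolic ribosomal protein genes, of which 134 were lower and 0 higher. Summed per kb, the 67 mitochondrial genes had 0.136 and 0.128 times the level of the cytosolic ones in the eluates, against 0.0166 and 0.0174 times in lysates. The mean ratio was 7.75 times higher in the eluate (two-sided exact permutation p = 0.333, the lowest possible). The cytosolic genes are shorter, with a median coding length of 432 bases. The median distance from the line on coding length was -0.74 for the mitochondrial genes and -2.95 for the cytosolic ones. The cytosolic genes were not compared with the running median, which put the mitochondrial genes closer, at -0.36.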

How the data were processed

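RNA of 2 eluates and 2 lysates, grouped by label, was compared. The deposited table holds raw read counts per open reading frame. For these, the submitters' notes name STAR 2.7.9a, sacCer3 and featureCounts (Subread 2.0.3), without options for strand or multiple alignments. A second table, the authors' own DESeq2 1.38.3 comparison (fold changes, statistics, p-values), was not used. Symbols of RefSeq (R64) matched 6008 of 6692 identifiers.

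The whole table was tested in R 4.3.3 with edgeR 4.0.16, after filterByExpr and TMM, by glmQLFit and glmQLFTest on fraction alone. SE is the size of the log2 fold change divided by the root of F. Other values came from Python 3.11.15 (scipy 1.17.1, pandas 2.3.3, numpy 2.4.6). The procedure was tested on simulated counts, in which most genes did not change, unlike in these data. That test thus cannot show how well TMM scales these libraries. Alternatives included DESeq2 1.42.0, limma 3.58.1 (voom), other scalings and filters, a replicate block and leaving out each library.

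Genes and lists were chosen with earlier results of these data known. Named are genes higher or not passed, the 6 lowest, 3 most abundant, 3 shortest and 3 longest per subunit, any with an intron, and MRP8. Coding overlaps were read from the deposited coordinates, and 61 of 67 genes have none. Sequences were not used here.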

Additional observations from a re-analysis of the deposited data

How the results depend on the processing

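The count of 58 lower genes ranged from 54 (of the 61 genes without overlap) to 68 (with genes of other names added), and that of 4 higher genes from 3 to 6. The median log2 fold change was -1.79 with library totals and -1.78 for the 61 genes without overlap. The difference of the subunit medians, large minus small (-0.36), was -0.25 without overlapping genes and -0.45 with genes of other names added, and ranged from -0.386 to -0.285 with one library left out. Spearman's correlation of log2 fold change with coding length (0.651) was 0.687 with a filter of 10 CPM in 2 libraries, 0.671 without overlapping genes and 0.640 with the added names. The share of counts, eluate over lysate (0.383), was 0.362 without overlapping genes, 0.396 without MRP8 and 0.392 with the added names. The subunit ratio, eluate over lysate (0.799), was 0.856 without overlapping genes, 0.824 with the added names and 0.754 without division by length. The SD of levels, eluate minus lysate (0.0104), was 0.0425 with the added names and ranged from -0.00879 to 0.0295 with one library left out, where it turned without eluate 1 (-0.00879) and without lysate 2 (-0.00334). Alternatives chosen after seeing the data gave 0.237 for this difference without MRPL4, 0.547 for the interquartile range, 0.766 for the subunit ratio without MRPL4 and 0.325 for the share without the 4 genes called higher. Genes that did not pass turned in sign: MRP1 (-0.083) and RSM25 (-0.082) with library totals, RSM23 (0.0014) and MRPS16 (0.0053) with the filter of 10 CPM, RSM23 without lysate 2 (0.0146) and MRP1 without lysate 1 (-0.119). With one library left out, MRP1 ranged from -0.119 to 0.331 and RSM23 from -0.128 to 0.0146. RSM23 passed as lower with library totals (-0.23, adjusted p = 0.0476 from edgeR). With a replicate block, 58 genes were lower and 4 higher, at a median of -1.61. The labels only number the libraries, and deviations of same-numbered libraries had a correlation of -0.0375 over 6191 genes. The cause of these differences was not tested. A planned search of sequence after the stop codon, with its alternative window, was not run. Depth limits MRPL4 most, at 18 counts in lysate 2.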

Other observations

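RSM19 and MRPS12, of uS19m and uS12m, are the only direct neighbours among the 67 genes. They lie in the same direction on chromosome XIV, 229 bases apart, and had log2 fold changes of -3.69 and -2.21.

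The direct neighbours of the 4 genes higher in the eluate were described after their values were seen. Of these 8 neighbours, 6 were lower in the eluate and 2 were higher. Among all genes tested, 44.8% were lower and 44.2% higher, and 8 neighbours are too few to set against these shares. Upstream of MRPL4 (4.59), on the opposite strand, LSM3 had a log2 fold change of -2.72. Downstream, SEC39 ends 117 bases from MRPL4 on the opposite strand and had 0.84. MRP20 (1.91) lies next to RPB7, upstream on the opposite strand at -2.69, and PDR15, downstream on the same strand at 2.18. Next to MRP4 (0.85), SHU1 had -1.16 and LAG1 had -3.81. RPS27A, next to RSM22 (0.51), had a log2 fold change of -4.90, and the gene on the other side of RSM22 had -2.29.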
